A study of Mus musculus with 6 samples.

Results

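Respiratory complex I, the NADH:ubiquinone oxidoreductase of the mitochondrial inner membrane, was examined through the nuclear genes that encode its subunits and assembly factors. Members were taken by name: every gene whose symbol starts with NDUFA, NDUFB, NDUFC, NDUFS or NDUFV, the NDUFAF genes included. This gave 51 of the 18388 genes in the table. They are 37 subunits, 8 assembly factors and 6 genes counted apart. Those 6 are Ndufa4, whose protein is now known as a subunit of cytochrome c oxidase, its relative Ndufa4l2, and the gene copies Ndufb4b, Ndufb4c, Ndufs6b and Ndufab1-ps.

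Expression was measured by RNA-seq of poly(A) RNA in morula-like aggregates, a culture model of the compacting embryo made from mouse expanded pluripotent stem cells. All libraries came from the same culture scheme, a stem cell medium followed by an induction medium. One group of 3 libraries received the vehicle (DMSO), and the other group of 3 received perfluorooctanoic acid (PFOA), a persistent fluorinated surfactant. No label states a dose or an exposure time. Nor do the labels tell separate cultures from repeat libraries of a culture, and p-values therefore cover the variation among these libraries, possibly a technical one. The comparison asks how complex I transcripts differed between PFOA and DMSO.

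Values are FPKM, fragment numbers scaled by transcript length and by the mapped fragments of a library, and the depth behind them is unknown. Series of 3 values below are in the order of replicates 1 to 3. Total FPKM was 641975 to 657239 in DMSO and 585739 to 630644 in PFOA, lowest in PFOA 1. All 8 markers of pluripotent cells used as a check were expressed, from Klf4 (DMSO mean 53.4 FPKM) to Dppa5a (2239), and they summed to 4247 to 4464 in DMSO and 3655 to 4121 in PFOA. The sum is dominated by Dppa5a, whose mean was 1952 in PFOA. By sign 4 of the 8 were lower and 4 higher in PFOA, with a median log2 fold change of 0.019. For 3 of the 8 (37.5%), Pou5f1, Nanog and Dppa5a, all PFOA values lay below DMSO, against 13.7% of all genes tested. They lay above DMSO for 1, Esrrb, against 13.5%. The 8 markers of feeder fibroblasts summed to 21.3 to 26.0 in DMSO and 19.7 to 21.8 in PFOA. None of them was at 0 in every library, and 2 (Col3a1 and Lum) had a mean under 1. Of the other 6, 5 (83.3%) were lower by sign, against 52.4% of all genes tested, and 1 was higher. All PFOA values lay below DMSO for 1 of these 6 (16.7%), Dcn. In bulk RNA, fewer cells of a type and less RNA per cell cannot be told apart.

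Complex I takes electrons from NADH, passes them along a chain of iron-sulfur clusters to ubiquinone, and pumps protons across the inner membrane. It is L-shaped: a peripheral arm in the matrix holds the flavin and the iron-sulfur clusters, and a membrane arm holds the proton pumps, whose central subunits are encoded in mitochondrial DNA and are not analysed here. The remaining core subunits and a shell of accessory subunits are encoded in the nucleus, imported, and put together in modules with the help of assembly factors that are absent from the finished enzyme. Pluripotent stem cells draw heavily on glycolysis, and mitochondria mature as the embryo develops.

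Subunit transcripts were far more abundant than those of the assembly factors. In DMSO the 37 subunits had means between 23.6 FPKM (Ndufs4) and 297 (Ndufa3), with a median of 99.3. The 8 assembly factors ranged from 7.89 (Ndufaf3) to 47.2 (Ndufaf8), with a median of 11.6. Of the assembly factors, 7 of 8 were below every subunit, and Ndufaf8 was the exception. FPKM is a level per transcript length, so it can be compared between genes.

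**Figure D1:**
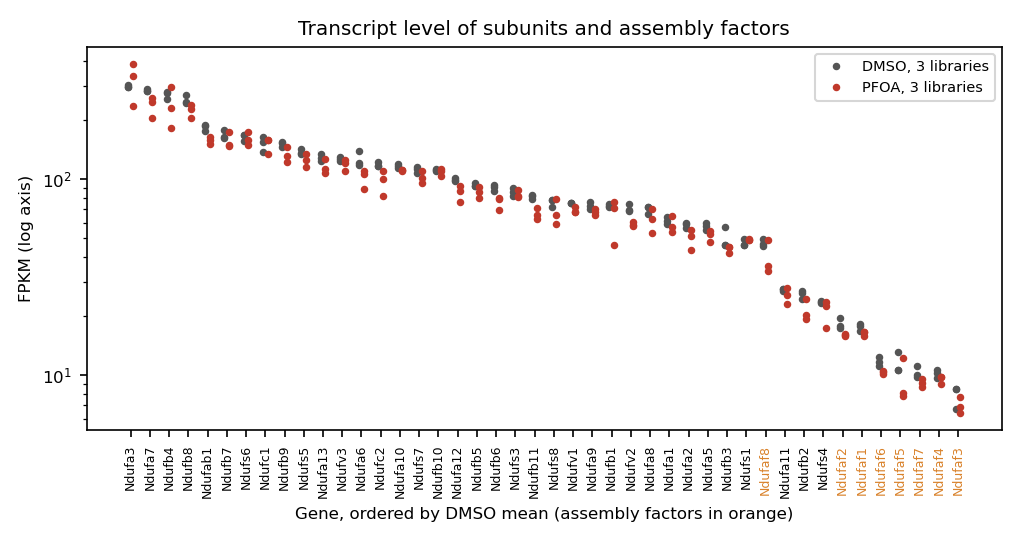
FPKM (log axis) of 36 subunits and 8 assembly factors in each library, ordered by the DMSO mean. Grey points are the 3 DMSO libraries and red points the 3 PFOA libraries; names of assembly factors are in orange. Ndufa3 is at the left end with a DMSO mean of 297 and Ndufaf3 at the right with 7.89.

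Promoters of complex I genes are known to carry sites for NRF1, ETS-family factors such as GABP, and YY1, factors that serve many nuclear genes for mitochondria. RefSeq windows on GRCm38.p6, from 250 bases before to 50 after the start site, were found for 40 of the 45 subunits and assembly factors. All words were searched on both strands, and none of them contains another. The NRF1-type word, GCGCA and GCGC with any 1 base between them, was in 9 of the 40 (22.5%), against 5.19% of all 27025 genes with a window and 11.8% of the 9561 of them that passed the filter on low values. It reads GCGC at both ends on either strand. The YY1-type word AAGATGGC was in 8 of 40 (20.0%), against 3.19% and 5.53%. The ETS-type word CCGGAAG was in 6 (15.0%, against 9.93% and 21.1%), and the E-box CACGTG, the word bound by MYC and MAX, in 2 (5.00%, against 8.09% and 12.1%). A word found is a description of the sequence, not a bound site. The median log2 fold change of PFOA against DMSO was −0.15 for the 9 members with the NRF1-type word and −0.16 for the 31 without it.

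The stretches of 120 bases below lie before the start site on GRCm38.p6 and are free of annotated exons (GENCODE M21), and each holds one of the words above. Each is written 5′ to 3′ on the strand of the gene, with the word in capitals: the NRF1-type word in Ndufs5 of the proximal arm, Ndufb4 of the distal arm and the assembly factor Ndufaf4, and the ETS-type word in the assembly factor Ndufaf1. The NRF1-type word is thus shown before genes of both parts of the membrane arm and before an assembly factor. The stretch of Ndufs5 ends 16 bases and that of Ndufb4 85 bases before the RefSeq start, and the others end at it.
Ndufs5 (chr4:123718203-123718322, minus strand): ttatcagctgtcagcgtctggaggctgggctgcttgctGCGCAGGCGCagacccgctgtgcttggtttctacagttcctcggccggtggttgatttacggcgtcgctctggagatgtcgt
Ndufb4 (chr16:37654454-37654573, minus strand): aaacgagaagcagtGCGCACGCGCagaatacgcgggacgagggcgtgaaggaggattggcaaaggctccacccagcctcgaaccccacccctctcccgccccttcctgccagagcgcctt
Ndufaf4 (chr4:24897963-24898082, plus strand): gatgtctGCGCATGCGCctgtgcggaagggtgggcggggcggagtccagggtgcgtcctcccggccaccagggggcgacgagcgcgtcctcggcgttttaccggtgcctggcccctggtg
Ndufaf1 (chr2:119662835-119662954, minus strand): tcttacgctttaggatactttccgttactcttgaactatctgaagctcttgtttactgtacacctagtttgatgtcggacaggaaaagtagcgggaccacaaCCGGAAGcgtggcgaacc

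Complex I transcripts were lower in PFOA for nearly every member by small amounts, and no single member passed the test over all genes. The filter of a mean FPKM of at least 1 kept 48 of the 51 members, that is all 37 subunits, all 8 assembly factors and 3 of the genes counted apart. With limma and Benjamini-Hochberg adjustment over 11876 genes, 0 members passed an adjusted p of 0.05, where 1 gene did in all (0.00842%). At an unadjusted p under 0.05, 24 of the 48 were lower in PFOA, against 12.5% of all genes tested, and 0 were higher, against 8.56%. The 3 PFOA values lay below all 3 DMSO values for 25 of the 48, against 13.7% of all genes, and above them for 0, against 13.5%. By sign alone 46 of 48 were below 0, against 52.4%. Genes with short transcripts were mostly lower as well, and the median longest annotated transcript of the subunits was 971 nt. Among tested genes whose longest transcript was under 1000 nt, 86.2% were lower by sign. Of these genes 39.4% were lower at an unadjusted p under 0.05, and 32.1% had all PFOA values below DMSO.

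Subunits and assembly factors had the same median to 2 decimals. The median log2 fold change, on the scale of log2(FPKM + 1), was −0.16 for subunits, with members from −0.31 to 0.069. For assembly factors it was −0.16, with members from −0.28 to −0.080. Over all genes tested the median was −0.0065. A gene's 95% confidence interval reached a median of 0.14 to either side in both, about as large as the differences. A test between the 2 groups of genes was not made.

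The libraries of the PFOA group were unequal. Taken as the difference from each gene's DMSO mean, the median over subunits was −0.014, 0.010 and −0.0058 in the DMSO libraries, against −0.27, −0.067 and −0.13 in those with PFOA. Over the assembly factors it was 0.015, −0.039 and 0.020 in the DMSO libraries, against −0.17, −0.061 and −0.17 in those with PFOA. PFOA 1 was the lowest of the 6 libraries for 31 of 37 subunits, against 26.3% of all genes tested, and for 4 of 8 assembly factors. Among tested genes whose longest annotated transcript was under 1000 nt it was lowest for 61.9%, and among the 20 subunits of that length for 90%. PFOA 2 was nearest to DMSO. Summed over the 37 subunits, FPKM was 4253, 4306 and 4289 in the DMSO libraries, against 3490, 4198 and 3975 in those with PFOA. As a share of total FPKM, which was also lower in PFOA, the subunits made up 0.649, 0.655 and 0.668% in DMSO and 0.596, 0.666 and 0.638% in PFOA. By this measure PFOA 2 lay inside the DMSO range. Without PFOA 1 the subunit median was −0.087, while that of the assembly factors was −0.16. The spread between libraries on the log2 scale was larger in PFOA than in DMSO for 31 of 37 subunits, against 56.9% of all genes, and for 2 of 8 assembly factors. Under 1000 nt it was larger in PFOA for 69.3% of tested genes and 95% of subunits.

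**Figure D2:**
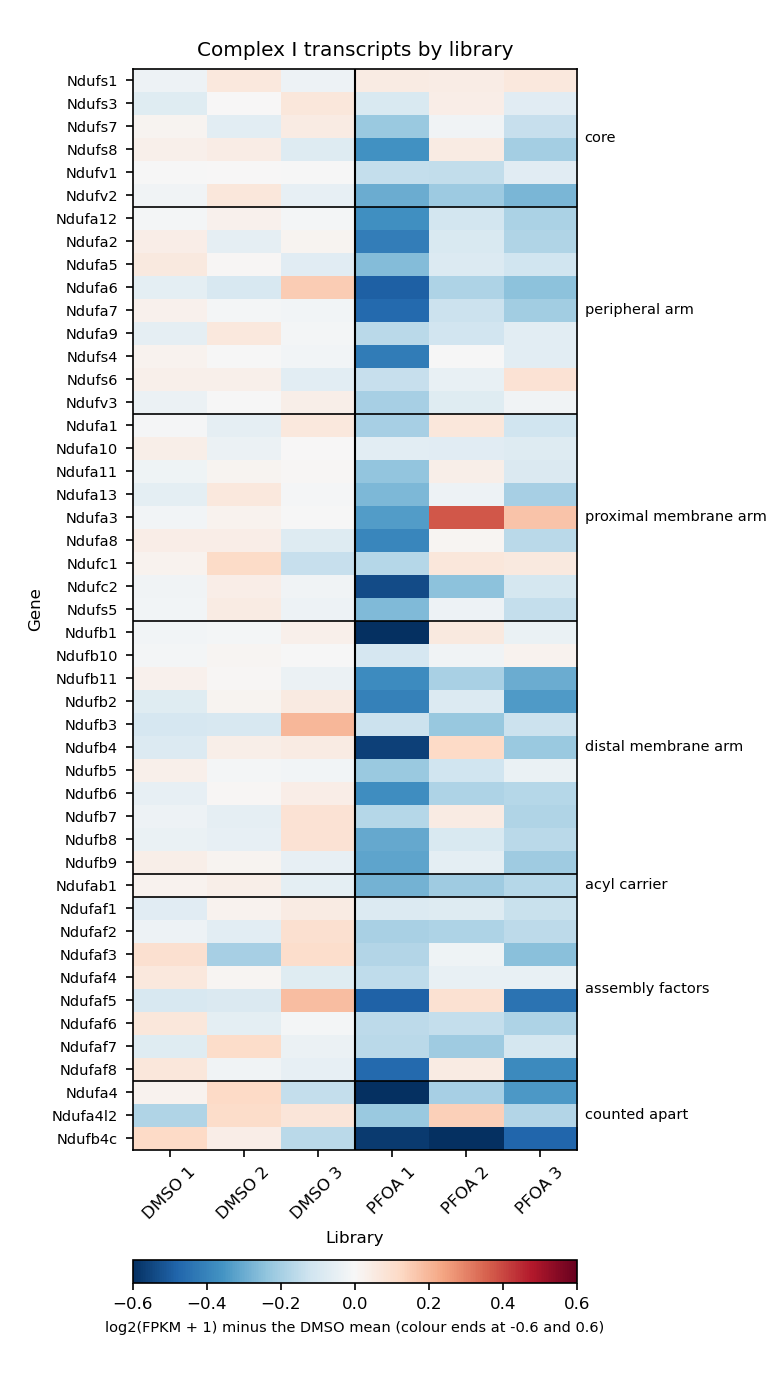
Each row is 1 of 47 tested members and each column a library; colour is log2(FPKM + 1) minus the DMSO mean of the gene, cut at −0.6 and 0.6. Blue, lower than DMSO, fills most of the PFOA columns and is deepest in PFOA 1; Ndufs1 is above 0 in all 3 PFOA libraries and Ndufa3 is red in PFOA 2.

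The nuclear core subunits form the electron path of the peripheral arm. Of the 6 described here, 5 were lower in PFOA by sign, against 52.4% of all genes tested. For 2 of the 6 all PFOA values lay below DMSO, against 13.7% of all genes. Ndufv2, an iron-sulfur protein at the NADH end, was 69.8, 74.3 and 68.4 FPKM in DMSO against 57.3, 60.8 and 58.4 in PFOA. Every PFOA library was below every DMSO library, and the log2 fold change was −0.26 (SE 0.043, 95% confidence interval −0.36 to −0.16, limma adjusted p = 0.110), the smallest p among the members. Ndufv1, its partner, which binds NADH and the flavin, was 75.1, 75.3 and 75.1 FPKM across the vehicle libraries and 68.0, 67.7 and 71.8 across the PFOA libraries. The 3 DMSO values lay very close together, and PFOA was below them at a log2 fold change of −0.12 (adjusted p = 0.146). Ndufs1, the largest subunit of the peripheral arm, went the other way, with 46.3, 49.5 and 46.2 FPKM in DMSO against 49.0, 48.8 and 49.5 in PFOA. Its groups overlapped, with DMSO 2 above all PFOA libraries, and its log2 fold change was 0.051 (95% confidence interval −0.038 to 0.14). The 3 proteins at the NADH end did not share a sign.

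The other core subunits lie nearer to ubiquinone. Ndufs7 holds the last iron-sulfur cluster before ubiquinone and was 113, 107 and 116 FPKM across the vehicle libraries and 95.5, 110.2 and 102 across the PFOA libraries (log2 fold change −0.13). Its PFOA 2 value lay inside the DMSO range. Ndufs8, another iron-sulfur protein, was 78.0, 78.6 and 72.2 FPKM in DMSO against 59.0, 79.0 and 66.0 in PFOA, where PFOA 2 was the highest of the 6 libraries and PFOA 1 the lowest. Its log2 fold change was −0.17 (95% confidence interval −0.38 to 0.039). Ndufs3 was 81.7, 86.2 and 90.05 FPKM across the vehicle libraries and 80.7, 88.3 and 81.8 across the PFOA libraries, with overlapping groups and a log2 fold change of −0.040. It has 35.8% of the 50-nt words of its longest transcript in other annotated genes, and how the authors counted reads from such stretches is unknown, so its value is uncertain.

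The 9 accessory subunits of the peripheral arm were all below DMSO by sign, against 52.4% of all genes tested, with a median log2 fold change of −0.16. For 6 of 9 all PFOA values lay below DMSO, against 13.7% of all genes. Among tested genes whose longest annotated transcript was under 1000 nt, 86.2% were lower by sign and 32.1% had all PFOA values below DMSO. Ndufa6, a small protein of the LYR family that docks an acyl carrier protein, was 121, 118 and 139.8 FPKM in DMSO against 89.1, 110.5 and 106 in PFOA. DMSO 3 was the highest, no PFOA value reached the DMSO range, and the log2 fold change was −0.31 (SE 0.089, adjusted p = 0.140). Ndufa7 was 289.7, 282 and 281 FPKM across the vehicle libraries and 206, 260.2 and 246 across the PFOA libraries (log2 fold change −0.27, adjusted p = 0.142). Ndufa12, which takes the place of the assembly factor Ndufaf2 late in assembly, was 98.3, 101 and 98.5 FPKM in DMSO against 76.7, 91.8 and 86.9 in PFOA (log2 fold change −0.22, adjusted p = 0.135). In both, PFOA 1 was clearly the lowest and the other PFOA libraries stayed below DMSO. Ndufa12 shares 26.2% of its 50-nt words with other genes. Ndufs6, a zinc-binding subunit, stood at 167, 167 and 156 FPKM across the vehicle libraries and 149, 159 and 174 across the PFOA libraries and showed no common direction (log2 fold change −0.032, 95% confidence interval −0.17 to 0.10). The PFOA 3 library was the highest of the 6 for this gene. The sign turned under quantile normalization and with a length trend removed. The 5 remaining members of this group ran from Ndufa2 at −0.23 to Ndufv3 at −0.10 in log2 fold change.

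In the proximal membrane arm, next to the peripheral arm, 8 of 9 accessory subunits (88.9%) were lower by sign. The share was 52.4% of all genes tested and 86.2% of those under 1000 nt. For 2 of 9 (22.2%) all PFOA values lay below DMSO, against 13.7% of all genes and 32.1% of those under 1000 nt. The median log2 fold change of these subunits was −0.10, and their median longest transcript 861 nt. Ndufc2 was 117, 122 and 117 FPKM in DMSO against 81.6, 100.02 and 110.4 in PFOA. All PFOA values were below DMSO, with a log2 fold change of −0.30 (SE 0.094, adjusted p = 0.154). Ndufc1, next to it in the arm, was 154, 164 and 138 FPKM across the vehicle libraries and 135, 159 and 158 across the PFOA libraries, with overlap and a log2 fold change of −0.014 that turned positive under several settings. Ndufa3, the most abundant subunit transcript, was 294, 301 and 297 FPKM in DMSO against 235, 385 and 335 in PFOA. The DMSO libraries agreed closely, whereas PFOA 1 was below them and PFOA 2 and 3 were above, so the log2 fold change of 0.069 had an interval of −0.27 to 0.41, and without PFOA 2 it was −0.083. The 6 others ran from Ndufa8 at −0.18 to Ndufa10 at −0.069.

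The distal membrane arm, the end farthest from the matrix arm, showed the lowest median of the 4 structural groups, −0.20. All 11 of its subunits were lower by sign, against 52.4% of all genes tested and 86.2% of those under 1000 nt. For 7 of the 11 all PFOA values lay below DMSO, against 13.7% of all genes and 32.1% of those under 1000 nt. With the copies Ndufb4b, which missed the filter, and Ndufb4c counted in, the median of 12 tested genes was −0.20. Ndufb11, encoded on the X chromosome, was 82.9, 81.7 and 79.3 FPKM across the vehicle libraries and 62.4, 70.9 and 66.0 across the PFOA libraries. PFOA was lower in every library, with a log2 fold change of −0.29 (SE 0.049, adjusted p = 0.110). Ndufb6 was 87.3, 90.7 and 93.0 FPKM in DMSO against 69.6, 79.4 and 80.1 in PFOA (log2 fold change −0.24, adjusted p = 0.127), also without overlap. Of the exon bases of Ndufb6, 39.0% overlap another gene, mainly Smim27, and the strand used in counting is not given.

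Ndufb2 was 24.5, 26.2 and 26.9 FPKM across the vehicle libraries and 19.3, 24.4 and 20.2 across the PFOA libraries, with a log2 fold change of −0.27 (adjusted p = 0.143), and its PFOA 2 value was just under DMSO 1. Ndufb9, a second LYR protein, was 156, 153 and 146 FPKM in DMSO against 122, 146 and 131 in PFOA (log2 fold change −0.20, adjusted p = 0.157). Ndufb8 was 247, 246 and 270.0 FPKM across the vehicle libraries and 205, 238 and 227 across the PFOA libraries (log2 fold change −0.19, adjusted p = 0.161). In all 3 genes the groups were apart, with PFOA 1 lowest. Ndufb9 has 23.4% of its 50-nt words in other genes. The 5 others, Ndufb4 aside, ran from Ndufb1 at −0.21 to Ndufb10 at −0.033. The Ndufb1 value rests on PFOA 1, at 46.4 FPKM where the other libraries had 71.4 to 76.5, and without it was 0.011. Ndufab1, the mitochondrial acyl carrier protein, sits in both arms and also serves fatty acid synthesis. It was 187, 189 and 177 FPKM in DMSO against 151, 159 and 163 in PFOA, and PFOA was lower in each library by a similar amount (log2 fold change −0.22, SE 0.044, adjusted p = 0.110).

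**Figure D3:**
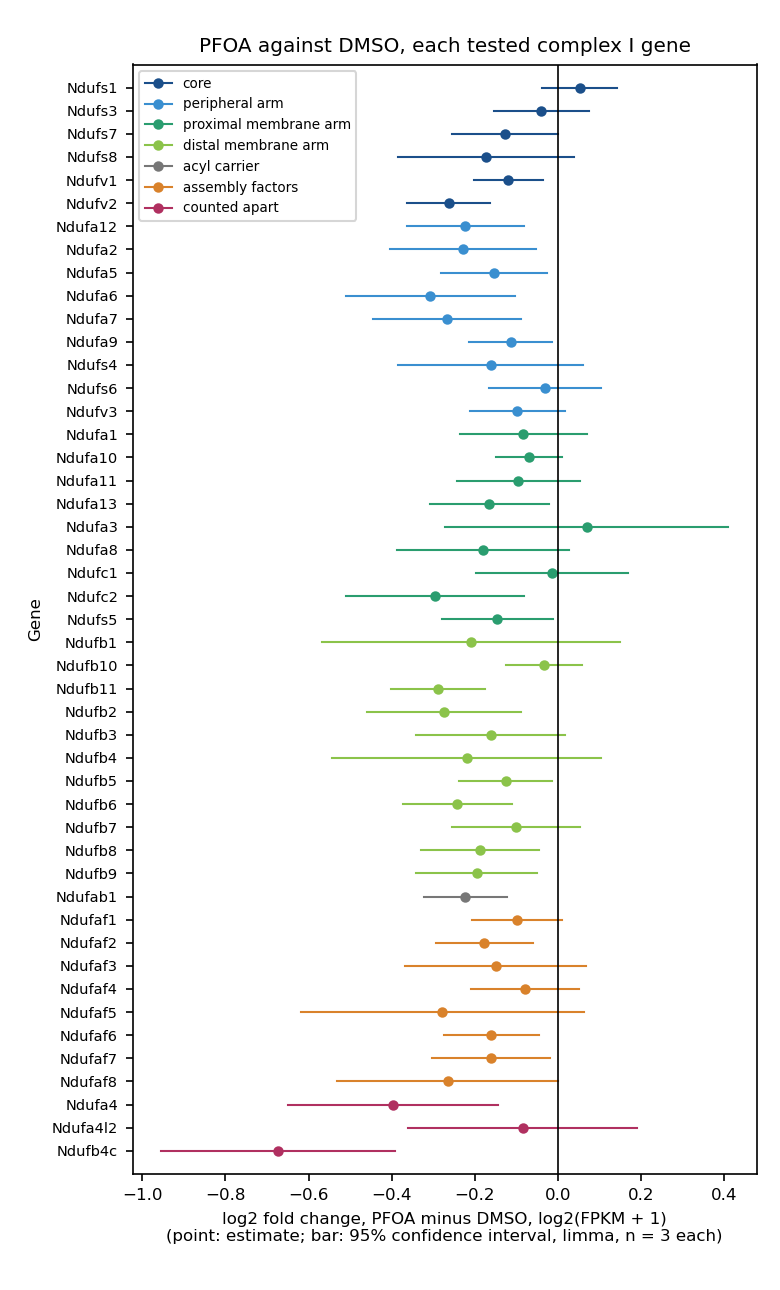
Log2 fold change of PFOA against DMSO for 47 tested members (point) with its 95% confidence interval from limma (bar), coloured by place in the enzyme. Points lie left of 0 for 45 of 47; Ndufb4c is the farthest left at −0.67 and Ndufa3 the farthest right at 0.069.

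All 8 assembly factors were lower by sign, against 52.4% of all genes tested. Of the 8, 3 (37.5%) were lower at an unadjusted p under 0.05, against 12.5%, and for 4 (50%) all PFOA values lay below DMSO, against 13.7%. Ndufaf1, part of the complex that builds the membrane arm and the gene with the ETS-type word above, was 16.7, 17.8 and 18.2 FPKM across the vehicle libraries and 16.6, 16.6 and 15.9 across the PFOA libraries (log2 fold change −0.10, adjusted p = 0.271). The groups were apart by a narrow margin. Ndufaf2, a relative of Ndufa12 that holds its place during assembly, was 17.8, 17.4 and 19.5 FPKM in DMSO against 15.8, 15.9 and 16.3 in PFOA (log2 fold change −0.18, adjusted p = 0.138). Its PFOA values were nearly equal and below DMSO, but 65.6% of its exon bases overlap another gene.

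Ndufaf3 and Ndufaf4 work as a pair on the ubiquinone module. Ndufaf3 was 8.45, 6.70 and 8.51 FPKM across the vehicle libraries and 6.84, 7.69 and 6.43 across the PFOA libraries. Ndufaf4 was 10.7, 10.2 and 9.61 FPKM in DMSO against 9.05, 9.83 and 9.83 in PFOA. The groups overlapped for both, with log2 fold changes of −0.15 and −0.080. Ndufaf5, an enzyme that hydroxylates an arginine of Ndufs7, was 10.6, 10.7 and 13.1 FPKM across the vehicle libraries and 7.85, 12.2 and 8.13 across the PFOA libraries. Its stabilising partner Ndufaf8 was 49.6, 46.6 and 45.6 FPKM in DMSO against 33.9, 48.9 and 36.1 in PFOA. Both showed 1 high PFOA library, PFOA 2, and 2 low ones, at log2 fold changes of −0.28 (95% confidence interval −0.62 to 0.061) and −0.27 (−0.53 to 0.00082).

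Ndufaf6, needed early in assembly, was 12.3, 11.2 and 11.6 FPKM across the vehicle libraries and 10.4, 10.5 and 10.2 across the PFOA libraries (log2 fold change −0.16, SE 0.050, adjusted p = 0.152). Ndufaf7, a methyltransferase that acts early in assembly, was 9.75, 11.2 and 10.02 FPKM in DMSO against 9.09, 8.74 and 9.50 in PFOA (log2 fold change −0.16, adjusted p = 0.197). In both the PFOA libraries were close together and below all DMSO libraries.

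Assembly factors whose names do not start with NDUF lay on both sides of 0. Of 14 tested, 10 were lower and 4 higher by sign, with a median log2 fold change of −0.10. At an unadjusted p under 0.05, 3 (21.4%) were lower and 1 higher, against 12.5% and 8.56% of all genes, and 0 passed over all genes. Tmem126b, which joins Ndufaf1 in the membrane arm assembly complex, was 21.6, 21.3 and 21.1 FPKM across the vehicle libraries and 17.7, 18.7 and 15.4 across the PFOA libraries (log2 fold change −0.29, adjusted p = 0.121). Chchd4, which brings disulfide-bonded proteins into the intermembrane space, was 54.7, 53.9 and 49.1 FPKM in DMSO against 45.1, 47.5 and 44.4 in PFOA (log2 fold change −0.20, adjusted p = 0.128). Dmac1, a factor of the distal membrane arm, was 42.4, 43.2 and 42.5 FPKM across the vehicle libraries and 32.5, 37.4 and 38.6 across the PFOA libraries (log2 fold change −0.24, adjusted p = 0.128). In these 3, which have the smallest p of the list, every PFOA value was below every DMSO value. The reverse held for 2 others, Tmem186, another member of the membrane arm assembly complex, at 0.13 (adjusted p = 0.192), and Foxred1, an oxidoreductase-like factor, at 0.055.

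Transcription factors and cofactors of nuclear mitochondrial genes lay on both sides of 0. Of 12 listed, 10 passed the filter, 4 were lower and 6 higher by sign, and the median was 0.013. At an unadjusted p under 0.05, 1 of 10 (10%) was lower and 0 higher, against 12.5% and 8.56% of all genes. For 3 of 10 (30%), Esrra, Tfam and Yy1, all PFOA values lay below DMSO, against 13.7% of all genes. They lay above DMSO for 0, against 13.5%. Esrra, an orphan nuclear receptor that acts on respiratory genes, was 7.80, 8.16 and 7.62 FPKM in DMSO against 6.62, 7.36 and 7.20 in PFOA (log2 fold change −0.14, adjusted p = 0.222), with no overlap. Myc was 26.1, 23.9 and 24.0 FPKM across the vehicle libraries and 26.1, 25.4 and 26.8 across the PFOA libraries (log2 fold change 0.077), with overlap. Pprc1, a coactivator related to PGC-1 alpha, was 75.4, 74.2 and 72.6 FPKM in DMSO against 77.7, 74.6 and 79.1 in PFOA (log2 fold change 0.058), also overlapping. Ppargc1a and Ppargc1b missed the filter.

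Among the genes counted apart, Ndufa4 was the most abundant member of all, at 693, 742 and 619 FPKM across the vehicle libraries and 436, 595 and 538 across the PFOA libraries. PFOA was lower throughout, with a log2 fold change of −0.40 (SE 0.11, adjusted p = 0.137). Its hypoxia-inducible relative Ndufa4l2 was near the filter, at 1.39, 1.92 and 1.85 FPKM in DMSO against 1.32, 1.99 and 1.40 in PFOA, with overlapping groups and a log2 fold change of −0.086. Ndufb4c is annotated as a processed pseudogene, and all (100%) of its 50-nt words are also in Ndufb4. It was 59.8, 56.5 and 49.0 FPKM across the vehicle libraries and 36.6, 27.5 and 39.2 across the PFOA libraries, the lowest log2 fold change of the members at −0.67 (SE 0.12, adjusted p = 0.110). Ndufb4 itself, with the NRF1-type word printed above, was 255, 277 and 279 FPKM in DMSO against 183, 294 and 232 in PFOA, which overlapped, with PFOA 2 the highest and PFOA 1 the lowest library. Ndufb4 has 37.0% of its 50-nt words in other genes, so both values are uncertain where reads were split between them. The 3 copies that missed the filter were low in every library. Ndufs6b was 0.610, 0.900 and 0.290 FPKM across the vehicle libraries and 0.610, 0.300 and 0.300 across the PFOA libraries. Ndufb4b was listed at 0 in all libraries except DMSO 3, at 0.440 FPKM, and Ndufab1-ps in all except PFOA 1, at 0.0300, and PFOA 2, at 0.270.

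One PFOA library decided whether any member passed. PFOA 2 was the PFOA library whose subunit median was nearest to DMSO. Without it, 4 of 48 members passed over all genes, against 0.766% of all genes called lower in that fit. They were Ndufb11 (log2 fold change −0.34, limma adjusted p = 0.0398), Ndufb2 (−0.37, 0.0441), Ndufaf8 (−0.42, 0.0353) and Ndufb4c (−0.52, 0.0456). In that fit 94 genes passed in all, against 1 with all 6 libraries. For Ndufb4c, PFOA 2 was the lowest library, at 27.5 FPKM, and with all 6 libraries its log2 fold change was −0.67.

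Transcript length moved with the groups. Complex I transcripts are short: the median longest annotated transcript was 971 nt for subunits and 1322 nt for assembly factors, against 3043 nt for all genes tested with a length. Among all 716 tested genes under 1000 nt the median log2 fold change was −0.16, the same to 2 decimals as the subunits, and 86.2% of them were lower in PFOA. In that class 39.4% of genes were lower at an unadjusted p under 0.05, and 32.1% had PFOA values below all DMSO values. For the 20 subunits under 1000 nt these shares were 45% and 45%, with a median of −0.17.

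The 17 subunits that reached 1000 nt were centred on −0.13, and 16 of 17 were lower. The 10985 tested genes of that length had a median of −0.00070, and 50.3% were lower. Of these subunits 58.8% were lower at an unadjusted p under 0.05, against 10.9% of genes of that length, and 58.8% had PFOA values below all DMSO values, against 12.7%. Most of those genes are much longer than these subunits, whose median was 1623 nt against 3187 nt. The class also rests on the longest annotated transcript. For many of these subunits the median over coding transcripts was under 1000 nt, as for Ndufv2 (813 nt) and Ndufb8 (549.5 nt). Which transcript is expressed was not determined. The 6 assembly factors of that length were all lower by sign, against 50.3% of genes of that length, with a median of −0.16. Of the 6, 2 (33.3%) were lower at an unadjusted p under 0.05, against 10.9%. For 3 (50%) all PFOA values lay below DMSO, against 12.7%. Their median length was 1482.5 nt, also well short of 3187 nt. Across the 45 subunits and assembly factors, Spearman's rho between length and log2 fold change was 0.129, and across 11701 tested genes it was 0.595. The members cover a narrower range of lengths, and all points come from the same 6 libraries.

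**Figure D4:**
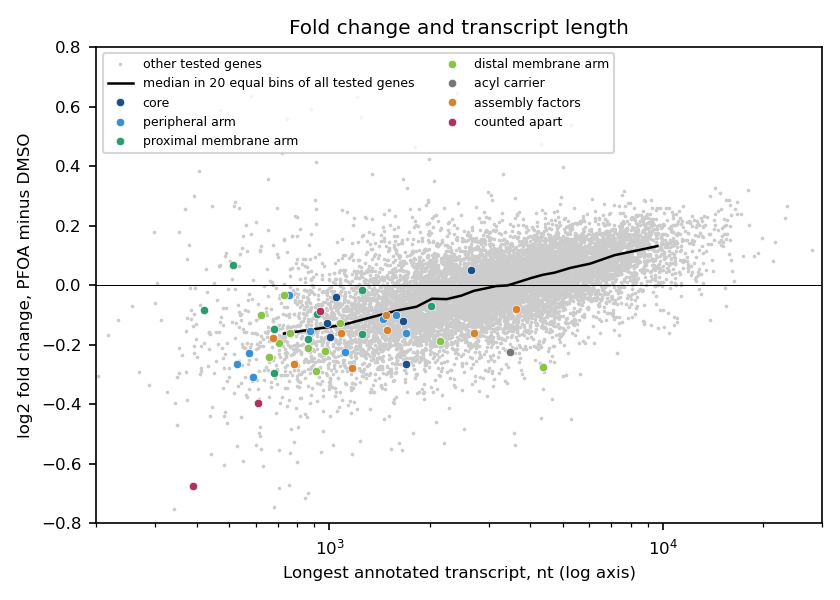
Log2 fold change of PFOA against DMSO by the longest annotated transcript (log axis) for tested genes (grey), with the median in 20 equal bins (line) and the members in colour; 27 genes lie outside the axes. Members sit around the line at the short end, and Ndufb2 and Ndufab1 lie below it at 4371 and 3479 nt.

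With a trend on this length removed from each library, most of the difference in subunits was gone. Their median was −0.025, with 24 of 37 lower, and that of the assembly factors −0.070, with 7 of 8 lower; over all genes 47.8% were lower in that fit. At an unadjusted p under 0.05, 9 of the 48 members were lower, against 6.64% of all genes, and 3 were higher, against 6.65%. Subunit medians by library were then −0.034, −0.0083 and 0.022 in the DMSO libraries, against −0.042, 0.037 and −0.015 in those with PFOA. The groups overlapped. Assembly factor medians were −0.0012, −0.059 and 0.045 in the DMSO libraries, against −0.077, −0.032 and −0.085 in those with PFOA, which overlapped as well.

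Single members differed in what remained. Ndufv2 was at −0.19, Ndufb11 at −0.14, Ndufa4 at −0.20, Ndufab1 at −0.22 and Ndufb2 at −0.30. For Ndufv2, Ndufab1 and Ndufb2 the longest annotated transcript is well above the median over their coding transcripts, 813, 984 and 2413 nt. Which of these transcripts is expressed was not determined. Ndufa6 was at −0.11 and Ndufa7 at −0.057. Highest in this fit were Ndufa3, at 0.28, Ndufa1, at 0.15, Ndufb10, at 0.14, and Ndufs6, at 0.14. Lowest was Ndufb4c, at −0.43. In this fit 0 members passed the adjusted threshold.

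**Figure D5:**
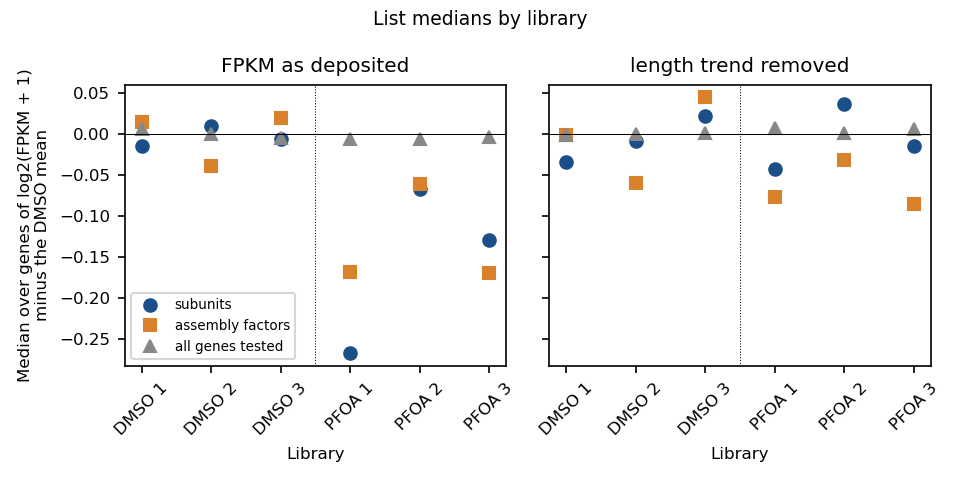
Median of log2(FPKM + 1) minus the DMSO mean, by library, for subunits (circles), assembly factors (squares) and all genes tested (triangles), with FPKM as deposited (left) and with the length trend removed (right). On the left PFOA 1 is lowest for subunits at −0.27; on the right PFOA 2 lies above the DMSO libraries for subunits at 0.037.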

How the data were processed

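The authors deposited FPKM per gene symbol with 2 decimals and 1 column per library (file header). HISAT2 2.0.4, Bowtie2 2.2.5 and build GRCm39 are named in the submitters' processing notes; the sources used here give no counting tool, annotation or strand. Groups and replicate numbers come from the titles. The 11876 of 18388 genes whose mean FPKM over the 6 libraries reached 1 were analysed as log2(FPKM + 1), which understates changes of low genes, by limma 3.58.1 under R 4.3.3 with a variance trend, two-sided, Benjamini-Hochberg adjusted over all genes, called under 0.05. On simulated data with independent noise, the fit recovered 54.9% of 1.25-fold and 90.1% of 1.5-fold changes, and 5.75% of its calls were false. The median change of the subunits, a fall of 10.6%, was smaller than any change simulated.

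FPKM divides by length and library total. Longest coding transcripts from GENCODE M21 (build GRCm38, not that of the files; 98.5% of tested genes) gave lengths (the longest transcript where none is coding, as for Ndufb1 and Ndufb4c); a spline with 5 degrees of freedom was removed per library as an alternative. Words of 50 nt and exon overlap also came from M21, and 20% or more is stated for named genes. Not given above are the shares of words in other genes for Ndufs5 (31.1%), Ndufs6b (25.4%) and Ndufab1-ps (74.2%).

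Members and lists were chosen with earlier results of these data known, so no list was tested. Values are given for core subunits (except 1 that is not reported here and is counted only in totals), the 10 other subunits with the smallest p, all assembly factors, Ndufa4, Ndufa4l2, the 4 highest and 4 lowest fold changes, members missing the filter, and 3 genes of each other list; Ndufb4, Ndufb10, Ndufa1, Tmem186, Foxred1 and the ends of ranges were added after their values were seen. Gene copies of Ndufb4 were set apart from the distal arm after the table was read. Coa1 is not analysed here.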

Additional observations from a re-analysis of the deposited data

How the results depend on the processing

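The count of genes past the threshold, 1 with all libraries, was 0 with no low-value filter, with no variance trend, with the replicate block, with the length trend removed and, in a fit chosen after seeing the data, with DMSO 3 as the sole control; it was 2 with library weights and between 0 and 94 when 1 library was left out (52 without DMSO 3, 94 without PFOA 2). The count of members past it was 0 in every fit except without PFOA 2 (range 0 to 4). Members lower at an unadjusted p under 0.05 numbered 24 and were 9 with the length trend removed, 9 with DMSO 3 as the sole control, 17 under quantile normalization and 18 to 31 with 1 library left out. The subunit median was −0.025 with the length trend removed, −0.105 under quantile normalization and −0.204 to −0.087 with 1 library left out. The assembly factor median was −0.070 with the length trend removed and −0.199 to −0.148 with 1 library left out. Of the 48 tested members, 13 had the other sign with the length trend removed: Ndufs3 (0.094), Ndufs7 (0.013), Ndufaf2 (0.005), Ndufa4l2 (0.061), Ndufc1 (0.099), Ndufs6 (0.138), Ndufa1 (0.150), Ndufa11 (0.053), Ndufs5 (0.036), Ndufb10 (0.141), Ndufb3 (0.008), Ndufb5 (0.004) and Ndufb7 (0.091). Quantile normalization turned 4, Ndufs3 (0.009), Ndufc1 (0.041), Ndufs6 (0.036) and Ndufb10 (0.011), and DMSO 3 as the sole control turned 2, Ndufc1 (0.123) and Ndufs6 (0.032). Leaving out 1 library turned Ndufa3 (−0.083 without PFOA 2 to 0.271 without PFOA 1), Ndufc1 (−0.083 without DMSO 3 to 0.063 without PFOA 1), Ndufs6 (−0.091 without PFOA 3 to 0.021 without PFOA 1), Ndufb1 (−0.344 without PFOA 2 to 0.011 without PFOA 1) and Ndufb10 (−0.060 without PFOA 3 to 0.001 without PFOA 1). The cause of these changes was not tested. Replicate numbers did not pair the libraries: deviations of same-numbered libraries correlated at −0.11, −0.0095 and −0.14 across genes, and with the replicate block 24 members were lower at an unadjusted p under 0.05, as without it. Depth is unknown, so what it limits cannot be given.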

Other observations

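Many complex I genes start back to back with another gene. In the GENCODE M21 annotation, 21 members have a protein-coding gene on the opposite strand whose start lies within 1000 nt of their own, and for 18 of these pairs both genes were tested. Members were lower in PFOA by sign in 17 of the 18, against 52.4% of all genes tested, with a median log2 fold change of −0.16. Their partners were lower in 13 and higher in 5, with a median of −0.081. At an unadjusted p under 0.05, 4 of the 18 partners were lower and 1 higher, against 12.5% and 8.56% of all genes. Partner transcripts were longer, at a median of 2332 nt against 844 nt, and with the length trend removed the medians were −0.015 for members and −0.031 for partners.

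Among single pairs, Ndufa4 and its neighbour Phf14, a chromatin reader, lay on opposite sides of 0: Ndufa4 at −0.40 and Phf14 at 0.12, where Phf14 had means of 17.5 ± 0.451 FPKM for DMSO and 19.2 ± 0.684 for PFOA (± SD over 3 libraries; limma adjusted p = 0.180). Ndufs1 and Eef1b2, a translation elongation factor, did so in reverse, at 0.051 and −0.17, where Eef1b2 was 446 ± 26.2 in DMSO and 396 ± 27.8 in PFOA (adjusted p = 0.187). Ndufa2 was at −0.23 and Ik, a splicing factor, at 0.073. Ndufb9 and Tatdn1 were both lower, at −0.20 and −0.16. None of these genes passed the threshold over all genes, and the pairs were named after their values were seen.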
